A study of Mus musculus with 16 samples.

Results

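The genes of antioxidant and redox defence were followed in the cerebellum of wild-type and Atm-/- mice given nicotinamide riboside (NR) or water. The 37 genes were taken from a list that covers superoxide dismutases, catalase, glutathione peroxidases, peroxiredoxins, the thioredoxin and glutathione systems, the Nrf2 axis and the metallothioneins. They are 37 of the 22911 named genes on the array, and a probe was counted to a gene where its accession belongs to that gene. In all, 49 of 56605 probes belonged to these genes, with 26 genes measured by 1 probe and 11 by several. All 49 probes were well above background on all 16 arrays, so every one of the 37 genes was measured in every animal, and a filter on dim probes removed none of them.

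The mice came from the line B6;129S4-Atmtm1Bal/J, bred on a mixed B6 and 129 background, in which the homozygous Atm-/- animals have a disrupted Atm gene in all cells and the wild-type (WT) animals are their littermates. NR, a precursor of NAD+, was dissolved in the drinking water at 3.5 mg/ml (12 mM) from 6 weeks of age for 2 months, and the vehicle (veh) groups drank water. RNA came from cerebellar cortex at 3.5 months of age, 1 animal per array, and the labels give every animal as male. Each genotype was split into a veh and an NR group of 4 arrays, numbered 1 to 4. Each array has 1 colour, and the log2 signal given below is the log2 of a spot's brightness after quantile normalization between the arrays. It ranks a probe between arrays and not one gene against another.

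Superoxide from the respiratory chain and from oxidases is turned into hydrogen peroxide by superoxide dismutases, and the peroxide is then removed by catalase, glutathione peroxidases and peroxiredoxins. These peroxidases draw their electrons from glutathione or thioredoxin, which are recycled with NADPH. Under oxidative stress the transcription factor Nrf2, encoded by Nfe2l2, escapes its inhibitor Keap1 and turns on many of these genes through antioxidant response elements. Metallothioneins bind zinc and copper, and the forms Mt1 and Mt2 answer to metals and glucocorticoids. ATM itself is a kinase of the DNA damage response and can be activated by oxidation.

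Several properties of the arrays touch the values below. The WT arrays lay on slide 1 and the Atm-/- arrays on slide 2, with veh in row 1 and NR in row 2 of both, so genotype and slide, and treatment and row, cannot be told apart. Against the labelled sex stood 4 arrays, on which Xist was detected and Eif2s3y was not. They were Atm-/- NR 4, Atm-/- veh 3 and the WT NR arrays 1 and 4. The calls, and some of the differences that rest on Atm-/- veh 3, are given with and without these arrays. Between 34945 and 37817 probes were well above background on the Atm-/- NR arrays, fewer than on any Atm-/- veh array (39134 to 41905). Both probes of Atm were lower on every Atm-/- veh array than on any WT veh array. The difference was called at 1 of them, from 8.63 to 9.03 in WT veh to 7.91 to 8.08 in Atm-/- veh (limma, adjusted p = 3.2e-04), and was -0.35 without a call at the other (adjusted p = 0.221). All 7 markers of granule cells and all 7 of Purkinje cells that were listed were measured. Markers of other cells set 2 arrays apart. The mean of 5 measured red blood cell markers, taken relative to each gene's mean over all arrays, was 2.18 on Atm-/- veh 3 and between -0.61 and 0.20 on the other arrays. The mean of 7 measured choroid plexus markers was 4.94 on WT veh 4 and between -1.32 and 0.69 on the others. By the same measure WT veh 4 was also lowest for granule cell (-0.41) and Purkinje cell markers (-0.50) and highest for microglia (0.59). In Atm-/- NR against Atm-/- veh the 8 markers of endothelium and mural cells had a median difference of -0.23, and 1 of them was called lower. In the same comparison 1 of the 7 Purkinje cell markers was called higher, while their median difference was -0.024. The part of these markers in the results below was not tested. In RNA from whole tissue, fewer cells of a type and less RNA per cell cannot be told apart.

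The groups were compared in 1 limma model over all probes, and a gene counted as called where its p, adjusted by Benjamini-Hochberg, was under 0.05. The loss of Atm without NR (Atm-/- veh against WT veh) gave 0 called genes of the 37, where 0.0538% of all 16737 measured genes were called. At an unadjusted p under 0.05 there were 9 of the 37 (24.3%), beside 16.8% of all genes. The t-test of the study's methods gave 5 of the 37 unadjusted (13.5%, beside 13.3% of all genes) and 0 after Benjamini-Hochberg adjustment (0.00597% of all genes), and its z-ratio rule (a difference of z-scores past 1.5 times the SD of such differences, beside p-value limits) gave 0 (1.69% of all genes). Of the 37 genes, 25 were higher in Atm-/- veh and 12 lower, with a median difference of 0.065 on the log2 scale against -0.028 for all genes.

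Under NR the Atm-/- mice showed called changes in 4 of the 37 genes (10.8%), a share close to the 11.5% of all genes called in that comparison. Txnrd2 rose, 1 of 37 genes where 6.67% of all genes rose, and Mt3, Hmox2 and Keap1 fell, 3 of 37 where 4.8% of all genes fell. At an unadjusted p under 0.05 there were 12 (32.4%), beside 30.5% of all genes. In this comparison 26 of the 37 were lower and 11 higher, with a median difference of -0.11 against 0.036 for all genes. When the 4 arrays that go against the labelled sex were left out, 0 of the 37 were called by limma, where 1.51% of all genes were, and 10 (27%) passed the unadjusted p beside 26.1% of all genes, with the 4 differences between -0.73 and 0.34 and adjusted p-values between 0.0537 and 0.0859. Leaving out 1 array, 1 gene (Mt3, 2.7%) was called without Atm-/- veh 1, beside 3.01% of all genes. Without Atm-/- NR 3 there were 2 (Mt3 and Txnrd2, 5.41%), beside 3.12% of all genes.

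In wild-type mice NR gave 0 called genes of the 37, as it did among all genes (0%), and 5 of the 37 (13.5%) at an unadjusted p under 0.05 beside 8.84% of all genes. The methods' t-test gave 1 unadjusted (2.7%, beside 8.08% of all genes) and 0 adjusted (0% of all genes), and the z-ratio rule 0 (1.2% of all genes). Between the treated groups (Atm-/- NR against WT NR) 0 of the 37 were called, where 0.0597% of all genes were, and 1 (2.7%) passed the unadjusted p beside 4.34% of all genes. Here the methods' t-test gave 2 unadjusted (5.41%, beside 6.98% of all genes) and 0 adjusted (0.0239% of all genes), and the z-ratio rule 0 (1.15% of all genes). Averaged over both genotypes, NR gave 6 called genes of the 37 (16.2%), beside 13.4% of all genes. Of these, Txnrd2, Prdx2 and Srxn1 rose (3 of 37, where 7.44% of all genes rose) and Mt3, Hmox2 and Keap1 fell (3 of 37, where 5.94% fell). Without the 4 arrays against the labelled sex, 2 of the 37 were called (Mt3 and Hmox2), beside 6.57% of all genes. Averaged over both treatments, the loss of Atm gave 0 called in limma, where 0.221% of all genes were, and 3 of the 37 (8.11%) at the unadjusted p beside 13.1% of all genes. The difference of the NR effects between the genotypes was called in limma for 0 of the 37 and for 0% of all genes, and 3 of the 37 (8.11%) passed the unadjusted p beside 5.96% of all genes. These comparisons share arrays with each other, so the values are given side by side and none is set against another as a second measurement.

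**Figure D1:**
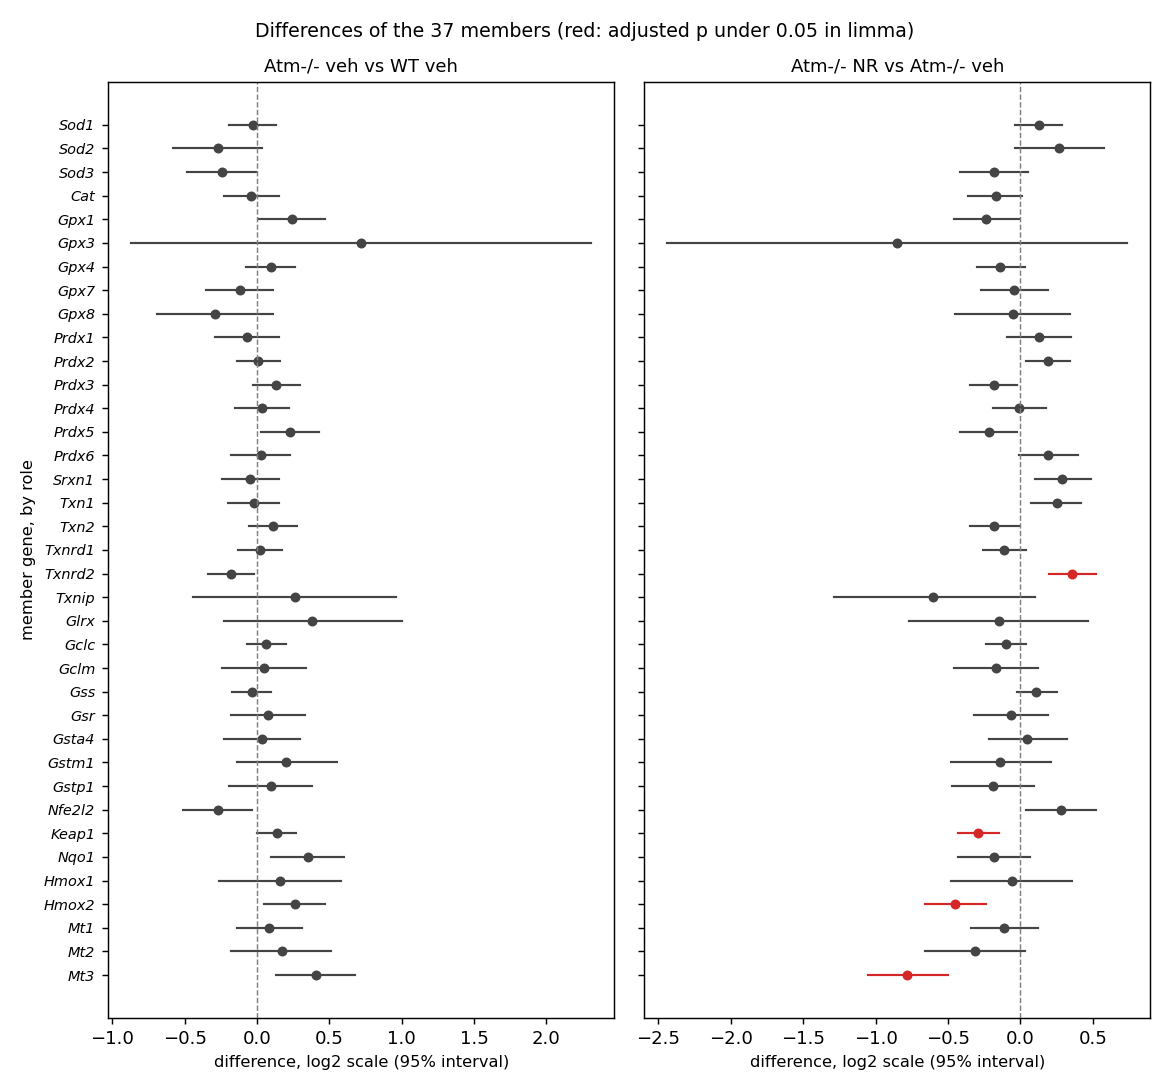
Difference of each of the 37 genes on the log2 scale with its 95% interval from the limma model, for Atm-/- veh against WT veh on the left and for Atm-/- NR against Atm-/- veh on the right, with genes ordered by role. The 4 called genes are red on the right (Txnrd2 at 0.36, Keap1 at -0.29, Hmox2 at -0.45 and Mt3 at -0.78), none is red on the left, and Gpx3 has the widest interval in both panels.

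The plot of differences shows most genes within 0.3 of 0 in both comparisons, with intervals that reach across 0. The 2 comparisons use the same Atm-/- veh arrays, with opposite sign. The genes are described below by role. Where the arrays of 2 groups are said not to overlap, this is a description and not a call. In Atm-/- NR against Atm-/- veh it also held for Sod1 and Prdx1 (limma, adjusted p = 0.291 and 0.429). The share of all genes without overlap is not given here.

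The largest called change was in the metallothioneins. Mt3, the form found mainly in the brain, where it binds zinc and copper, measured 13.63, 13.25, 13.66 and 13.44 on the 4 Atm-/- veh arrays. On the Atm-/- NR arrays it measured 12.83, 12.75, 12.55 and 12.75. Every NR array lay below every vehicle array, and the difference was -0.78 ± 0.13 (SE) on the log2 scale, a level that fell by 41.6% (limma, adjusted p = 0.00735). In wild-type mice Mt3 measured 13.18, 12.99, 12.85 and 13.34 with vehicle and 12.93, 12.51, 12.81 and 12.88 with NR. These groups overlapped, and the difference of -0.31 ± 0.13 was not called (adjusted p = 0.619). The difference between both NR effects was -0.47 ± 0.18 and was not called either (adjusted p = 0.839). Averaged over the genotypes, Mt3 fell by 0.54 ± 0.09 (adjusted p = 0.00563). In Atm-/- veh against WT veh it was 0.41 ± 0.13 higher without a call (adjusted p = 0.216), with WT veh 4 above Atm-/- veh 2.

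Mt1 and Mt2, the forms induced by metals and glucocorticoids in most tissues, are neighbours of Mt3 in 1 cluster of genes on chromosome 8. Neither was called in any comparison. Mt1 lay between 17.74 and 18.17 and Mt2 between 17.25 and 17.96 over all arrays, both lowest on WT veh 4 and highest on Atm-/- veh 3. In Atm-/- NR against Atm-/- veh, Mt1 differed by -0.11 ± 0.11 and Mt2 by -0.31 ± 0.16 (adjusted p = 0.526 and 0.227). A dimmer second probe of Mt1 spread more widely, from 7.65 on WT veh 4 to 10 on Atm-/- veh 3, and differed by -1.13 ± 0.38 without a call (adjusted p = 0.0765). Taken as deviations from the group means, Mt1 and Mt2 varied together over the 16 arrays, with Pearson's r = 0.933 and Spearman's rho = 0.947 (permutation tests, p = 1.0e-05 for each, the smallest that the permutations can give, and adjusted p = 3.0e-05 over 3 relations). The coefficient was 0.906 without the 2 arrays whose Mt1 deviation lay farthest from the median (WT veh 2 and Atm-/- veh 3). It was 0.931 within the 8 WT arrays and 0.938 within the 8 Atm-/- arrays. For Mt3 no relation was detected with Mt1 (r = 0.0778, rho = 0, permutation p = 0.771 for r, adjusted p = 0.813) or with Mt2 (r = -0.0635, rho = 0.0176, permutation p = 0.813 for r). Without the 2 arrays farthest in Mt1, or in Mt2, r was 0.0468 and -0.00215. How far the Mt1 and Mt2 probes bind the RNA of the other gene was not tested.

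**Figure D2:**
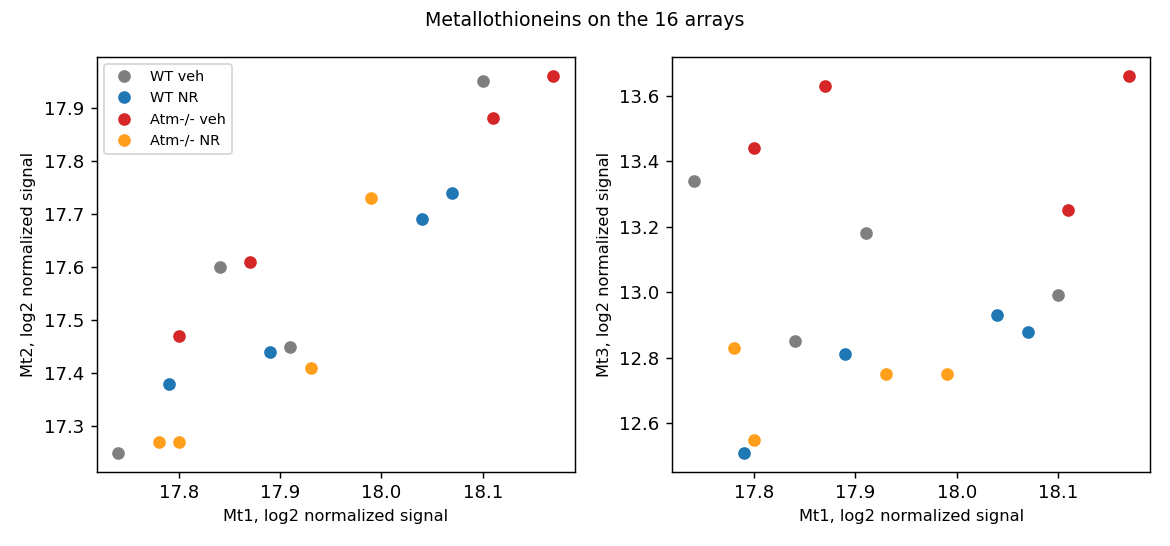
Log2 normalized signal of Mt2 (left) and Mt3 (right) against Mt1, 1 point for each of the 16 arrays, coloured by group. Mt2 follows Mt1 (r = 0.933 for deviations from the group means), while Mt3 separates the Atm-/- veh arrays, all at 13.25 or above, from the Atm-/- NR arrays, all at 12.83 or below, and its r with Mt1 is 0.0778.

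The upstream sequences of the 3 genes are shown because Mt1 and Mt2 varied together while no such relation was detected for Mt3. They are the 250 bases before each start in RefSeq's table (GRCm38.p6), written 5′ to 3′ along the gene, with capitals for the core of the metal response element (TGCACNC or TGCGCNC, on either strand).

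Mt1, chr8:94178839-94179088, + strand: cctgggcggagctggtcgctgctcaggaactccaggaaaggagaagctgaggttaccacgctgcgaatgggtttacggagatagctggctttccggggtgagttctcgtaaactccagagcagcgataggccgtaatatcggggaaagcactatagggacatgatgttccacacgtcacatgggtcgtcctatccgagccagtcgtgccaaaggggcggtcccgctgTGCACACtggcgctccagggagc
Mt2, chr8:94172368-94172617, + strand: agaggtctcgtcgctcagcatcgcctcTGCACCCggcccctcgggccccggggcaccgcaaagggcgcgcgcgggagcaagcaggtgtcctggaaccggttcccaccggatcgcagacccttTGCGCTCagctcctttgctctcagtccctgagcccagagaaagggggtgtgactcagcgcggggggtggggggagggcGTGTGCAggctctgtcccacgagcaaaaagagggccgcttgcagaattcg
Mt3, chr8:94152357-94152606, + strand: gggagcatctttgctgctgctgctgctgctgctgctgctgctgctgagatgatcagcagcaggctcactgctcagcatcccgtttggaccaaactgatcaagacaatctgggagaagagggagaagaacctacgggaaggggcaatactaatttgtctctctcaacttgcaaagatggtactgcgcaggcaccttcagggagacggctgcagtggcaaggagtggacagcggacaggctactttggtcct

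In these windows Mt1 held 1 match, Mt2 held 3 and Mt3 held 0. Each window depends on where RefSeq's table places the start, and whether the cerebellum uses that start was not tested. Bases past the start were not searched, so these counts are not the number of elements in a gene's promoter. Of 27017 windows of this length over all genes, 21% held at least 1 match and 0.748% held 3 or more. A match describes the letters only, and a window without one says nothing of the factor that binds this element.

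The genes listed with the Nrf2 axis include 2 of those called in Atm-/- NR against Atm-/- veh. Hmox2, the constitutive haem oxygenase of neurons, measured 13.82, 13.64, 13.50 and 13.74 in Atm-/- veh and 13.24, 13.28, 13.20 and 13.18 in Atm-/- NR. No array overlapped between these groups, and Hmox2 fell by 0.45 ± 0.098 (27%, limma, adjusted p = 0.0167). A second, dimmer probe of Hmox2 was also called, and fell by 0.55 ± 0.098 (adjusted p = 0.00928), from 12.45 or above to 12.05 or below. Without the arrays against the labelled sex this probe kept its call (-0.59, adjusted p = 0.0422). In wild-type mice Hmox2 measured 13.58, 13.46, 13.19 and 13.44 with vehicle and 13.35, 13.04, 13.11 and 13.25 with NR. The groups overlapped and the difference of -0.23 ± 0.098 was not called (adjusted p = 0.624). Averaged over the genotypes Hmox2 fell by 0.34 ± 0.07 (adjusted p = 0.0111), and in Atm-/- veh against WT veh it differed by 0.26 ± 0.098 (adjusted p = 0.27).

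Keap1, the adaptor that delivers Nrf2 to a ubiquitin ligase, measured 13.07, 12.93, 12.96 and 13.09 in Atm-/- veh and 12.75, 12.79, 12.67 and 12.68 in Atm-/- NR. Again every NR array was lower, and Keap1 fell by 0.29 ± 0.064 (18.3%, limma, adjusted p = 0.0174). The wild-type arrays measured 12.92, 12.82, 12.86 and 12.90 with vehicle and 12.89, 12.81, 12.81 and 12.72 with NR, and only WT NR 4 was within the range of the Atm-/- NR arrays. Atm-/- veh exceeded WT veh on every array, by 0.14 ± 0.064, and this was not called (adjusted p = 0.342). The difference between the NR effects was -0.22 ± 0.09 (adjusted p = 0.839). Nfe2l2, which encodes Nrf2, had differences of the opposite sign. It measured 11.01, 11.32, 11.28 and 10.96 in Atm-/- veh, every array below the 11.36 to 11.49 of WT veh, and 11.48, 11.30, 11.36 and 11.54 in Atm-/- NR. The differences were -0.27 ± 0.11 for Atm-/- veh against WT veh and 0.28 ± 0.11 for Atm-/- NR against Atm-/- veh, neither of them called (adjusted p = 0.292 and 0.125).

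Nqo1, a quinone reductase and a standard target of Nrf2, had the smallest adjusted p of the 37 genes for the loss of Atm averaged over both treatments. It measured 9.43, 9.49, 9.91 and 9.63 in Atm-/- veh and 9.17, 9.52, 9.27 and 9.10 in WT veh, which overlapped only through WT veh 2. With NR it measured between 9.37 and 9.5 in Atm-/- mice, all above the 9.01 to 9.33 of WT mice. The difference was 0.35 ± 0.12 with vehicle (adjusted p = 0.23), 0.27 ± 0.12 with NR (adjusted p = 0.935) and 0.31 ± 0.082 averaged (adjusted p = 0.163), and none was called. Without WT veh 4 and Atm-/- veh 3 the difference with vehicle was 0.19 (adjusted p = 0.444). Hmox1, the inducible haem oxygenase and another Nrf2 target, lay between 9.51 and 10.65 with its highest value on Atm-/- veh 3, and its 4 group means were within 0.16 of each other.

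**Figure D3:**
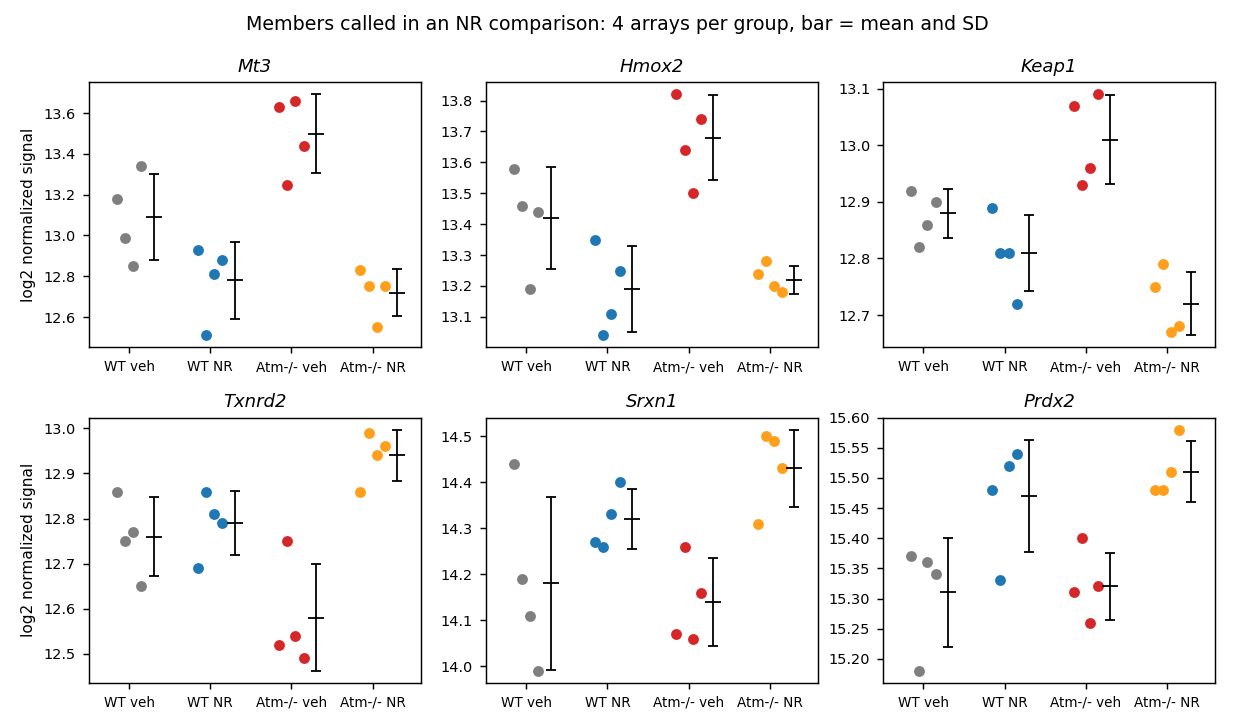
Log2 normalized signal of the 6 genes called in an NR comparison, 1 point per array, with the mean and SD of the 4 arrays of each group as a bar beside them. In Mt3, Hmox2 and Keap1 all 4 Atm-/- NR arrays lie below all 4 Atm-/- veh arrays, and in Txnrd2, Srxn1 and Prdx2 they lie above them.

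The core of the antioxidant response element (TGACNNNGC, on either strand) was found in the upstream windows of 5 of the 31 genes that RefSeq's table holds (16.1%), beside 10% of all 27017 windows. The 5 matches are shown in capitals with up to 10 bases on each side. They are where the letters of a possible Nrf2 site occur in these windows. Sod3, Prdx6, Gclc, Gsr, Gsta4 and Hmox1 are missing from the table, and bases farther upstream or past the start were not searched for any gene. The called genes Txnrd2, Hmox2, Keap1 and Mt3 had no match.

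Sod1, chr16:90220696-90220724, + strand: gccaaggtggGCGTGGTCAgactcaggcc
Prdx1, chr4:116685456-116685484, + strand: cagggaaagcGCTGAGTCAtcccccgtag
Gclm, chr3:122245413-122245441, + strand: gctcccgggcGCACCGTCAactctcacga
Nfe2l2, chr2:75704885-75704913, - strand: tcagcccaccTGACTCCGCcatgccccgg
Mt2, chr8:94172529-94172557, + strand: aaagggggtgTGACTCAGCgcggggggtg

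Of these 5 genes none was called in any comparison. Their differences in Atm-/- NR against Atm-/- veh were 0.13 for Sod1, 0.13 for Prdx1, -0.17 for Gclm, 0.28 for Nfe2l2 and -0.31 for Mt2, all on the log2 scale.

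Among the thioredoxins the mitochondrial reductase was called. Txnrd2, which reduces mitochondrial thioredoxin with NADPH, measured 12.52, 12.75, 12.54 and 12.49 in Atm-/- veh and 12.86, 12.99, 12.94 and 12.96 in Atm-/- NR. No array overlapped, and Txnrd2 rose by 0.36 ± 0.075 (28.3%, limma, adjusted p = 0.0144). A second probe of Txnrd2, which is far dimmer (7.61 to 8.27), did not follow, with a difference of -0.14 (adjusted p = 0.464), and the mean of both probes was not called (0.11, adjusted p = 0.414). The wild-type arrays lay at 12.86, 12.75, 12.77 and 12.65 with vehicle and 12.69, 12.86, 12.81 and 12.79 with NR, a difference of 0.029 ± 0.075 (adjusted p = 0.965). Txnrd2 had the smallest unadjusted p of the 37 for the difference between the NR effects, 0.33 ± 0.11, and it was not called (adjusted p = 0.839). In Atm-/- veh against WT veh it differed by -0.18 ± 0.075 (adjusted p = 0.299).

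Txn1, the cytosolic thioredoxin, measured 14.21, 14.28, 14.07 and 14.16 in Atm-/- veh and 14.43, 14.42, 14.48 and 14.37 in Atm-/- NR. The groups did not overlap, and the difference of 0.25 ± 0.082 missed the threshold (adjusted p = 0.0719). Txn2, the mitochondrial thioredoxin, differed by -0.18 ± 0.079 at its brightest probe (adjusted p = 0.163), while its dimmer probe was called and fell by 0.31 ± 0.079 (adjusted p = 0.0288), but was not called without the arrays against the labelled sex (-0.36, adjusted p = 0.0768). Txnrd1, the cytosolic reductase, differed by -0.11 ± 0.07 (adjusted p = 0.327).

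Txnip, which binds and inhibits thioredoxin, spread widely through 1 array. It measured 13.71 on Atm-/- veh 3 and between 11.56 and 12.20 on the other 15 arrays. Its difference was -0.60 ± 0.32 for Atm-/- NR against Atm-/- veh (adjusted p = 0.254), and -0.16 without the arrays against the labelled sex (adjusted p = 0.526). Glrx, a glutaredoxin that removes glutathione from proteins, was high on 4 arrays of 3 groups, at 11.29 and 11.49 on WT NR 1 and WT NR 3, 11.52 on Atm-/- veh 3 and 11.57 on Atm-/- NR 2. On the other arrays it measured between 10.34 and 10.99 and no comparison called it.

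The peroxiredoxins moved in both directions. Srxn1, sulfiredoxin, which repairs overoxidized peroxiredoxins, measured 14.07, 14.26, 14.06 and 14.16 in Atm-/- veh and 14.31, 14.50, 14.49 and 14.43 in Atm-/- NR. The groups did not overlap, and the difference of 0.29 ± 0.091 missed the threshold (adjusted p = 0.0595). In wild-type mice it measured 14.44, 14.19, 14.11 and 13.99 with vehicle and 14.27, 14.26, 14.33 and 14.40 with NR, which overlapped. Averaged over the genotypes Srxn1 rose by 0.21 ± 0.065 (limma, adjusted p = 0.0489), just past the threshold. Prdx2, an abundant cytosolic peroxiredoxin of neurons and red blood cells, measured 15.31, 15.40, 15.26 and 15.32 in Atm-/- veh and 15.48, 15.48, 15.51 and 15.58 in Atm-/- NR. In wild-type mice it measured 15.37, 15.18, 15.36 and 15.34 with vehicle and 15.48, 15.33, 15.52 and 15.54 with NR. The differences of 0.19 ± 0.069 and 0.16 ± 0.069 were not called (adjusted p = 0.0961 and 0.64), and averaged over the genotypes Prdx2 rose by 0.17 ± 0.049 (adjusted p = 0.038). A dimmer probe of Prdx2 gave 0.041 averaged over the genotypes (adjusted p = 0.629) and -0.0041 in the Atm-/- mice (adjusted p = 0.978). Without WT veh 4 and Atm-/- veh 3, the averages of Srxn1, Prdx2 and Txnrd2 were no longer called (adjusted p = 0.0975, 0.0565 and 0.0623), while those of Mt3, Hmox2 and Keap1 were.

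Prdx3 and Prdx5, the peroxiredoxins of mitochondria, had differences of the other sign in the Atm-/- mice. Prdx5 measured 15.53, 15.44, 15.32 and 15.55 in Atm-/- veh and 15.28, 15.19, 15.20 and 15.28 in Atm-/- NR, without overlap, and the difference of -0.22 ± 0.092 was not called (adjusted p = 0.137). Against WT veh, at 15.41, 15.27, 15.07 and 15.17, Atm-/- veh was 0.23 ± 0.092 higher with overlapping arrays (adjusted p = 0.29). Prdx3 differed by -0.18 ± 0.076 under NR in Atm-/- mice (adjusted p = 0.135). Prdx6, which also has phospholipase activity, differed by 0.19 ± 0.095 (adjusted p = 0.202) at its brightest probe and by -0.20 at a dimmer one. Prdx1 gave 0.13 at its brightest probe, 0.0022 at a dimmer one and -0.32 at the dimmest, and Prdx4 of the endoplasmic reticulum -0.0076, all without a call.

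The superoxide dismutases and catalase gave no call in any comparison. Among these genes Sod3, the extracellular form bound to vessel walls and matrix, had the largest difference under NR in wild-type mice. It measured 12.01, 11.77, 11.88 and 12.36 in WT veh and 11.58, 11.69, 11.84 and 11.71 in WT NR. These groups overlapped, and the highest value was on WT veh 4, the array with the highest mean of choroid plexus markers. The difference was -0.30 ± 0.11 (limma, adjusted p = 0.579). In Atm-/- mice Sod3 measured 11.80, 11.74, 11.64 and 11.86 with vehicle and 11.59, 11.61, 11.63 and 11.47 with NR, all 4 NR arrays below the vehicle arrays, with a difference of -0.18 ± 0.11 (adjusted p = 0.307). The average of both was -0.24 ± 0.079 (adjusted p = 0.0647), and it was called when WT veh 4 and Atm-/- veh 3 were left out, although the wild-type difference was then -0.18 (adjusted p = 0.46). The part of the choroid plexus in the Sod3 values was not tested beyond this. Sod1, the cytosolic form, kept within 16.35 to 16.69, and Sod2, the mitochondrial form, had its lowest value of 12.48 on Atm-/- veh 3 and measured 13.04 to 13.53 elsewhere. Its differences were -0.27 ± 0.14 for Atm-/- veh against WT veh and 0.27 ± 0.14 for Atm-/- NR against Atm-/- veh (adjusted p = 0.4 and 0.242). The other Atm-/- veh arrays measured 13.07, 13.21 and 13.08, so both differences of Sod2 rest in large part on Atm-/- veh 3. They are not given without it. Cat, the peroxisomal catalase, measured 11.67, 11.66, 11.45 and 11.63 in WT veh and 11.46, 11.29, 11.32 and 11.50 in WT NR, a difference of -0.21 ± 0.087 with overlapping arrays (adjusted p = 0.621). In Atm-/- mice the same difference was -0.17 ± 0.087 (adjusted p = 0.219).

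Of the 5 glutathione peroxidases none was called. Gpx3, the secreted plasma form, had the largest spread of the 37 genes. It measured 11.88 on Atm-/- veh 3, the array with the highest mean of red blood cell markers, and between 7.20 and 9.11 on the other 15. The difference of 0.72 ± 0.74 for Atm-/- veh against WT veh and that of -0.85 ± 0.74 for Atm-/- NR against Atm-/- veh rest on this array (adjusted p = 0.677 and 0.487), since the remaining Atm-/- veh arrays, at 8.31, 8.06 and 7.66, lay within the range of the other groups. Without the arrays against the labelled sex both changed sign, to -0.25 and 0.34. Gpx1, the main cytosolic form, was also highest on that array (14.91), with 14.38, 14.40 and 14.56 on the rest of Atm-/- veh and 14.25, 14.35, 14.23 and 14.46 in WT veh. The difference of 0.24 ± 0.11 was not called (adjusted p = 0.321), and it was 0.12 without the arrays against the labelled sex. Gpx8, a peroxidase of the endoplasmic reticulum, was highest on WT veh 4 (11.02), followed by Atm-/- NR 3 (10.52) and Atm-/- veh 3 (10.51), and lay between 9.94 and 10.40 on the others. Gpx7, its relative in the same compartment, lay between 8.93 and 9.47, and Gpx4, which reduces lipid peroxides in membranes, between 15.63 and 15.99.

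**Figure D4:**
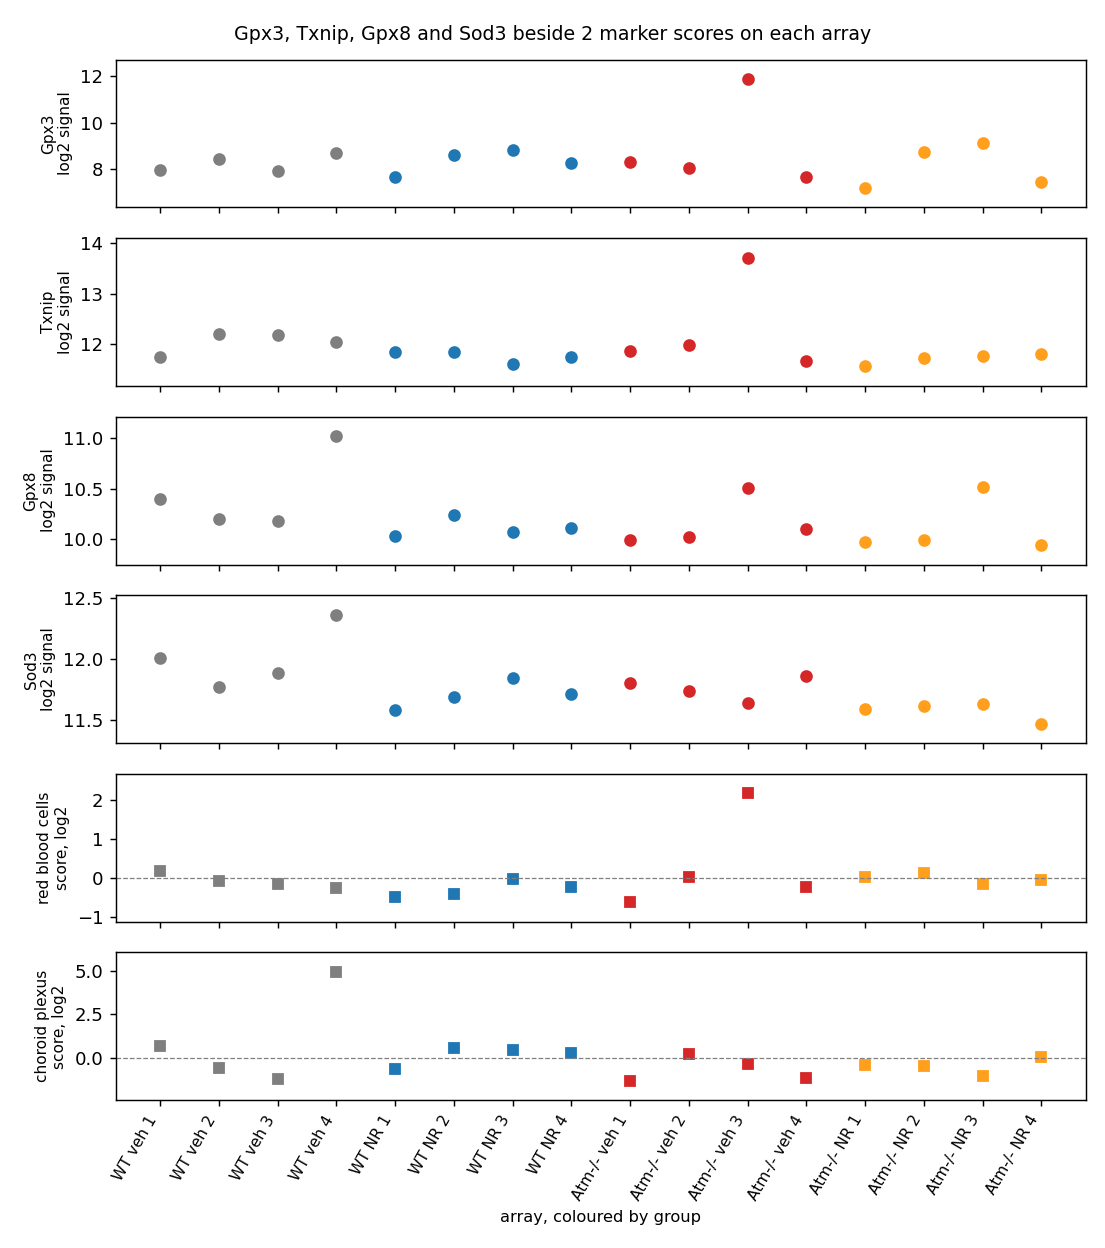
Log2 normalized signal of Gpx3, Txnip, Gpx8 and Sod3 on each of the 16 arrays (circles) above the mean log2 level of the red blood cell and choroid plexus markers relative to each marker's mean over all arrays (squares), coloured by group. Gpx3 (11.88) and Txnip (13.71) stand out on Atm-/- veh 3, which has the highest red blood cell score (2.18), and Gpx8 (11.02) and Sod3 (12.36) are highest on WT veh 4, which has the highest choroid plexus score (4.94).

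Atm-/- veh 3 gave the highest value of 14 of the 37 genes, among them Gpx3 and Txnip in the plot of spread and markers. WT veh 4 gave the highest of 3 and the lowest of 7, and WT NR 2 the lowest of 8. Whether blood or choroid plexus in the tissue accounts for these values was not tested.

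The genes of glutathione synthesis and recycling included the steadiest of the 37. Gclc, the catalytic subunit of the rate-limiting ligase, kept within 12.70 to 12.95 (SD 0.0677 over 16 arrays), the smallest spread of all. Gss, glutathione synthetase, kept within 12.67 to 12.96 at its brightest probe, while a dimmer probe ran from 8.79 to 9.87. Gclm, the modifier subunit of the ligase, varied more (13.13 to 13.75), and Gsr, which reduces oxidized glutathione with NADPH, lay between 12.92 and 13.54. The differences of these 4 genes were between -0.032 and 0.077 for Atm-/- veh against WT veh and between -0.17 and 0.11 for Atm-/- NR against Atm-/- veh, with no call. The dimmer Gss probe had the opposite sign in both, at 0.34 ± 0.16 and -0.22 ± 0.16 (adjusted p = 0.335 and 0.387).

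Of the glutathione transferases Gsta4, Gstm1 and Gstp1, which attach glutathione to lipid aldehydes and other electrophiles, none was called at its brightest probe. Gstm1 measured 15.99 on Atm-/- veh 3 and between 15.00 and 15.31 elsewhere. A second probe of Gstm1 measured 14.12, 13.89, 14.72 and 14.06 in Atm-/- veh and 13.55, 13.56, 13.46 and 13.46 in Atm-/- NR, and it was called (it fell by 0.69 ± 0.14, limma, adjusted p = 0.0147), while the brightest probe differed by -0.14 ± 0.16. Without the arrays against the labelled sex the second probe gave -0.50 (adjusted p = 0.0528) and the brightest 0.042. Genes of the mu class are close in sequence, so which of them each probe reads is uncertain.

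Beyond the 37 genes, 69 further genes of redox metabolism were listed and 66 of them measured. In Atm-/- NR against Atm-/- veh 7 of the 66 (10.6%) were called, 3 higher and 4 lower, beside 11.5% of all genes. Ggt7, a relative of gamma-glutamyl transferases, fell by 0.44 ± 0.064 (limma, adjusted p = 0.00574), from 13.04 or above in Atm-/- veh to 12.79 or below. Gstm6 of the mu class fell by 0.73 ± 0.15, Mafk, a small Maf partner of Nrf2, by 0.55 ± 0.14, and Cyba, a subunit of NADPH oxidases, by 0.50 ± 0.14 (adjusted p = 0.0142, 0.0279 and 0.0369). Cbr3, a carbonyl reductase, rose by 0.43 ± 0.13, Bach1, a repressor at antioxidant response elements, by 0.40 ± 0.12, and Me1, the cytosolic malic enzyme that yields NADPH, by 0.30 ± 0.079 (adjusted p = 0.0483, 0.05 and 0.032, the second under the threshold before rounding). Second probes of Gstm6 (0.28, adjusted p = 0.427) and Me1 (-0.07, adjusted p = 0.823) had the opposite sign, without a call. Second probes were called for Cyba (-0.61, adjusted p = 0.0177), for Glrx3, a cytosolic glutaredoxin (0.46, adjusted p = 0.0068), and for Ftl1, the ferritin light chain (-0.35, adjusted p = 0.0414). Without the arrays against the labelled sex 2 of the 66 were called, Ggt7 (-0.42, adjusted p = 0.0499) and Gstm6 (-0.57, adjusted p = 0.0451), beside 1.51% of all genes. Averaged over the genotypes 6 of the 66 (9.09%) were called beside 13.4% of all genes, 5 of them lower, and Gstt1 of the theta class joined these with a fall of 0.22 ± 0.062 (adjusted p = 0.0363). Without the arrays against the labelled sex 4 of the 66 kept a call in this average (Cyba, Ggt7, Gstm6 and Gstt1), beside 6.57% of all genes. In the other comparisons 0 of the 66 were called in limma, with the smallest adjusted p at 0.164 for Mafg, another small Maf protein, in the loss of Atm averaged over both treatments (-0.23 ± 0.061).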

How the data were processed

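RNA from the cerebellar cortex of 16 mice was measured on 1-colour Agilent arrays. For each array the authors deposited the spot intensity after local background subtraction by Agilent Feature Extraction 12.0.3.1, without normalization between arrays. The deposited value table holds a score for each spot, a z-score by the authors' methods, which was used only as an alternative. The 37 genes, the further redox genes and the markers were chosen with earlier results of these data known, and so was the rule for the values to be given (called genes, and up to 5 of smallest p in each pairwise comparison).

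Probes were named by accession through RefSeq genes of GRCm38.p6 (32994 of 56605 probes). The arrays were designed on mm9, so coordinates come only from RefSeq's promoter table, which held 31 of the 37 genes. Probes with at least 0.5 of their spots well above background on all 4 arrays of a group were kept (37253, for 16737 named genes), log2 signals were quantile normalized, spots marked as outliers were set aside and the rest averaged. A gene was read at its brightest probe. The 4 group means were fitted with limma 3.58.1 in R 4.3.3 (12 residual degrees of freedom, Benjamini-Hochberg over all kept probes), which was tested on simulated data. The number of arrays limits the precision. Alternatives were other scalings, filters, probe rules, tests, the replicate number as a block and arrays left out. WT veh 4 and Atm-/- veh 3 were left out together as an alternative chosen after seeing the data.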

Additional observations from a re-analysis of the deposited data

Results flagged for a closer look

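Of 148 groups of 4 arrays (37 genes in 4 groups), 7 held an array that stood apart from the others. Its gap to its nearest neighbour was a larger share of the group's range than Dixon's critical value allows. The count is close to the 1 in 20 that chance gives for independent groups. These groups share arrays and are not independent, and several flags fell on 1 array. On Atm-/- veh 3 the flagged genes were Gpx3 (a share of 0.846, 11.88 against a nearest value of 8.31), Txnip (0.843, 13.71 against 11.99) and Gstm1 (0.862, 15.99 against 15.19). The others were Gpx8 on Atm-/- NR 3 (0.904, 10.52 against 9.99), Glrx on Atm-/- NR 2 (0.882, 11.57 against 10.64), Gclm on Atm-/- veh 4 (0.889, 13.70 against 13.42) and Prdx2 on WT veh 2 (0.834, 15.18 against 15.34, the lowest of its group). None of the 4 genes called in Atm-/- NR against Atm-/- veh had such an array.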

How the results depend on the processing

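For the 37 genes, the counts of called genes in the 2 comparisons with calls moved with the processing, and among 641 values of the genes named by the rule under an alternative none changed its sign (574 kept their side of the threshold, 62 lost the call and 5 gained it). The values kept include those of genes without a call, which had none to lose. In the NR effect averaged over both genotypes, Srxn1 lost its call in 20 of 25 alternatives, Prdx2 in 14, Txnrd2 in 13 and Keap1 in 4. Mt3 and Hmox2 lost it in 0 of 25. In Atm-/- NR against Atm-/- veh the losses were 4 of 26 for Keap1, 3 for Hmox2, 3 for Txnrd2 and 1 for Mt3. In Atm-/- NR against Atm-/- veh (4 called), 7 were called with each array scaled to its 75th percentile (18.9%, beside 13.5% of all genes), 18 by the methods' t-test unadjusted (48.6%, beside 33.8%), 7 by that test after Benjamini-Hochberg (18.9%, beside 11.7%), 1 by the z-ratio rule (2.7%, beside 2.15%) and 0 without the arrays against the labelled sex (beside 1.51%). With each array left out in turn, the count ran from 1 to 6, beside 3.01% to 15.1% of all genes. It was 1 (Mt3) without Atm-/- veh 1 (3.01% of all genes) and 2 (Mt3 and Txnrd2) without Atm-/- NR 3 (3.12%). In the NR effect averaged over both genotypes (6 called), 3 were called with the mean of a gene's probes (8.11%, beside 8.75% of all genes). There were 2 (Mt3 and Hmox2) without the arrays against the labelled sex (5.41%, beside 6.57%). With each array left out the count was 2 to 7, beside 7.53% to 15.4% of all genes. It was 2 or 3 without WT NR 3 or 4, Atm-/- veh 1, 3 or 4, or Atm-/- NR 2, 3 or 4. In the comparisons with 0 called, no refit of limma gave a call, and the methods' t-test unadjusted gave 5 for Atm-/- veh against WT veh, 1 for WT NR against WT veh and 2 for Atm-/- NR against WT NR. The cause of these changes was not tested, except that fits with fewer arrays have fewer degrees of freedom.

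The replicate number, which is also the column on the slide, did not pair the arrays: 6 of 24 pairs with the same number deviated together with r over 0.1, and 2 of 16 arrays correlated best with their own number. With the replicate block 4 of the 37 genes (10.8%) were called in both NR comparisons with calls (Mt3, Hmox2, Keap1 and Txnrd2). Of all genes, 10.7% were called in Atm-/- NR against Atm-/- veh and 12% in the average over both genotypes. Genotype and slide cannot be told apart, nor can treatment and row, so the slide as a block was not run.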
